A study of Homo sapiens with 4 samples.

Results

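The genes of cholesterol and fatty acid synthesis were compared in HK-2 cells with and without induction of the PRCC-TFE3 fusion protein. HK-2 is an immortalised cell line from human kidney proximal tubule. The 38 genes were chosen by name and cover the mevalonate pathway, the squalene and sterol pathway, the SREBP machinery, sterol transport and storage with the LXR receptors, and fatty acid synthesis. Of these, 37 matched an identifier in the files (ACACA did not and is not analysed here) and 36 had enough reads to be tested, among 34080 matched and 13569 tested genes. All cells, controls included, carried a Tet-On 3G system that expresses HA-tagged PRCC-TFE3 when doxycycline is added, and grew in medium with 1.5% serum. The Doxy(+) group received 0.2 microg/ml doxycycline and the Doxy(-) group none, both for 24 h, and polyadenylated RNA was sequenced from 2 libraries per group. No HK-2 culture without the transgene was analysed here, so the effects of doxycycline and of PRCC-TFE3 cannot be told apart. The labels do not say whether the libraries of a group came from separate cultures, so the p-values measure the spread between these libraries, which may be technical.

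Cholesterol is built from acetyl-CoA through mevalonate, isoprenoids and squalene, and fatty acids are built from the same acetyl-CoA by a separate set of enzymes. Both sets are driven by SREBP transcription factors, which SCAP carries from the endoplasmic reticulum to the Golgi when sterols are scarce and which INSIG proteins hold back when sterols are plentiful. Sterol excess is handled by esterification and by efflux pumps that LXR receptors, activated by oxysterols, switch on. TFE3, the partner that gives the fusion its DNA-binding domain, is a MiT/TFE factor that binds E-box letters, and it is best known for lysosomal and autophagy genes.

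Promoter windows of the listed genes were read from RefSeq (GRCh38.p14), which had an entry for 32 of the 38, as 250 bases before to 50 bases after the first listed start of each gene. They were searched on both strands for the sterol regulatory element TCACNCCAC, bound by SREBP, for the E-box CACGTG, and for CCAAT, bound by NF-Y, a partner of SREBP at many sterol genes. The first window is shown because it is the only one with the exact letters TCACNCCAC. The next 3 are shown because their genes passed the test and hold the E-box. The last 5 are shown because their genes passed the test and hold CCAAT. Capitals mark the matched letters, read 5′ to 3′ on the strand of the gene, so that ATTGG is CCAAT on the other strand.
SREBF2, chr22:41832962-41832991, + strand: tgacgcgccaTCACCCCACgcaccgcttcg
INSIG1, chr7:155297811-155297840, + strand: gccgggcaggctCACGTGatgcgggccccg
ABCA1, chr9:104928285-104928314, - strand: gggccccggctcCACGTGctttctgctgag
LSS, chr21:46228725-46228754, - strand: gcagcagcaatgacggagggCACGTGagtc
SCD, chr10:100347035-100347064, + strand: aattcccttcggCCAATgacgagccggagt
HMGCS1, chr5:43313495-43313524, - strand: ctaccggccgcgATTGGctgtgggagccac
SOAT1, chr1:179293700-179293729, + strand: acctggggaccaCCAATaggatgctcagcc
TM7SF2, chr11:65111786-65111815, + strand: ccccgagcgccgATTGGctggtgtgctggg
FDPS, chr1:155308803-155308832, + strand: tcccgcgggcacATTGGgagttgtagtcta

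The CCAAT letters were found in 19 of the 32 windows (59.4%), against 35.7% of all 27305 promoters in the table. The E-box was found in 5 windows (SCAP, INSIG1, ABCA1, SC5D and LSS), which is 15.6%, against 7.44% of all promoters. Its longer form TCACGTG, which overlaps the E-box, stood in 3 of them (INSIG1, SC5D and LSS), against 3.82% of all promoters. Of the genes with the E-box, INSIG1 and LSS passed the test as higher and ABCA1 as lower. SCAP and SC5D did not pass, with log2 fold changes of 0.12 and 0.23. The exact letters TCACNCCAC were found in the SREBF2 window alone, against 1.15% of all promoters. Beyond the free letter N no mismatch was allowed, so forms of the sterol regulatory element with other letters were not searched for. Of the 19 genes with CCAAT, 6 passed as higher, 1 as lower and 12 did not pass. Among all 32 genes with a window these counts were 8, 3 and 21. ACAT2, FDFT1, SQLE, ABCG1, FASN and ACACA had no window and were not searched. These matches describe letters in short windows and no binding was measured.

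The deposited estimated counts summed to between 14042545 and 16618401 reads per library. TFE3 was higher with doxycycline, at 66.9 and 69.1 CPM in Doxy(-) and 367 and 322 CPM in Doxy(+) (CPM, counts per 1000000 counts on matched genes after TMM scaling), a log2 fold change of 2.34 with an SE of 0.0720 (edgeR adjusted p = 4.78e-05). PRCC, at 50.2, 47.2, 47.7 and 60.1 CPM in the same order, did not pass (edgeR adjusted p = 0.413). Of 10 listed renal epithelial markers 8 were tested, of which 2 passed as higher and 5 as lower at an edgeR adjusted p under 0.05. This is 87.5% in either direction, against 19.3% of all genes tested, and 1 of the higher markers had a fold change over 2. The summed level of the renal epithelial markers was 2259 CPM in each Doxy(-) library and 1913 and 1936 CPM in Doxy(+). PAX8, a kidney lineage factor, was between 565 and 605 CPM in all libraries, whereas the 7 transport markers of differentiated proximal tubule summed to only 4.25 to 5.74 CPM. LRP2, AQP1, SLC22A6 and SLC22A8 were at or near 0, and the other 3, SLC5A2 (2.90 to 4.04 CPM), SLC34A1 (0.233 to 1.32 CPM) and CUBN (0.408 to 0.854 CPM), were tested and did not pass. The 8 markers of blood, endothelium, hepatocytes and adipocytes summed to between 1.71 and 1.91 CPM in every library, with CDH5 at 0 throughout. The part of the epithelial markers in the changes of the lipid genes was not tested. In bulk RNA, fewer cells of a type and less RNA per cell cannot be told apart.

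The lipid synthesis genes did not move as a block. Of 36 tested, 12 (33.3%) passed the edgeR test at an adjusted p under 0.05, against 19.3% of all genes tested. Of these, 8 were higher in Doxy(+) (SREBF1, TM7SF2, LSS, SOAT1, FADS1, SCD, FDPS and INSIG1), where the background share was 9.76%, and 4 were lower (ABCA1, SQLE, HMGCS1 and CYP51A1), where it was 9.53%. By edgeR none also passed a fold change over 2 (0 in DESeq2 and 1, TM7SF2, in limma on TPM), which 1.98% of all genes did. At an unadjusted p under 0.05 the count was 20, against 33.4% of all genes. The median log2 fold change over the 36 genes was 0.012, against 0.00062 over all genes, with 19 values above 0 and 17 below. The median size of the change, whatever its sign, was 0.18 for these genes and 0.17 for all genes. They were more abundant than most, with a median level of 77.9 CPM against 26.6 CPM. Counting genes whose mean reached 10 CPM, 12 of 35 listed genes (34.3%) passed, against 24.6% of all such genes. Both Doxy(+) libraries lay above both Doxy(-) libraries for 16 genes (31.1% of all genes did so) and below them for 12 (30% of all genes), so 28 did not overlap (61.1% of all genes) and 8 did.

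**Figure D1:**
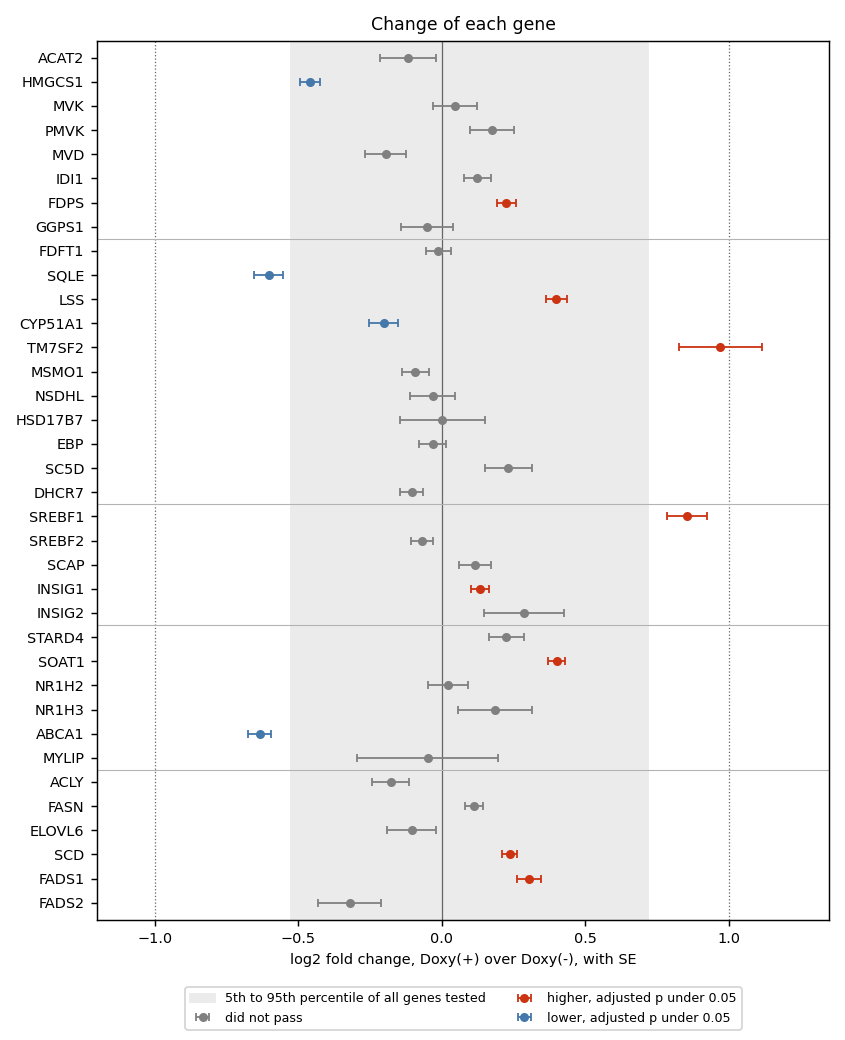
Log2 fold change of each tested gene, Doxy(+) over Doxy(-), with its SE as the bar, in the order of the pathways and with lines between the 5 groups of genes. Red points passed as higher and blue points as lower at an edgeR adjusted p under 0.05, the grey band spans the 5th to the 95th percentile of all genes (-0.53 to 0.72), and the dotted lines mark a fold change of 2. SREBF1 (0.85) and TM7SF2 (0.97) lie above the band, and SQLE (-0.60) and ABCA1 (-0.63) lie below it.

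Among the regulators, SREBF1 rose while SREBF2 did not pass the test. SREBF1 (chr17:17810399-17837002, - strand, hg38) encodes SREBP-1, the SREBP that drives fatty acid synthesis in particular, and it was at 96.3 and 87.4 CPM without doxycycline against 157 and 175 CPM with it. The groups did not overlap, and the gap between them was larger than the spread within either. The log2 fold change was 0.85 with an SE of 0.0708 (edgeR adjusted p = 9.03e-04), a level 80.8% higher, and it ran from 0.64 to 0.93 over the alternatives. SREBF2, which encodes the SREBP that drives cholesterol synthesis in particular, was at 253 and 247 CPM without doxycycline against 233 and 243 CPM with it, a log2 fold change of -0.068 with an SE of 0.0377 (edgeR adjusted p = 0.265). INSIG1, the endoplasmic reticulum anchor that is itself an SREBP target, was at 246 and 245 CPM without doxycycline against 271 and 267 CPM with it. That difference is small and tight, with a log2 fold change of 0.13 and an SE of 0.0321 (edgeR adjusted p = 0.0361), and it lost the call under several alternatives, with an adjusted p of up to 0.240 by edgeR. INSIG2, the second anchor, was at 21.6 and 16.5 CPM without doxycycline against 23.6 and 22.7 CPM with it, and its change of 0.29 did not pass (edgeR adjusted p = 0.215). Leaving out Doxy(-) 1 turned INSIG2 into a call, with a log2 fold change of 0.49 (edgeR adjusted p = 0.0341). SCAP, the escort of the SREBPs, was between 47.1 and 52.1 CPM in all libraries and did not pass (edgeR adjusted p = 0.204).

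**Figure D2:**
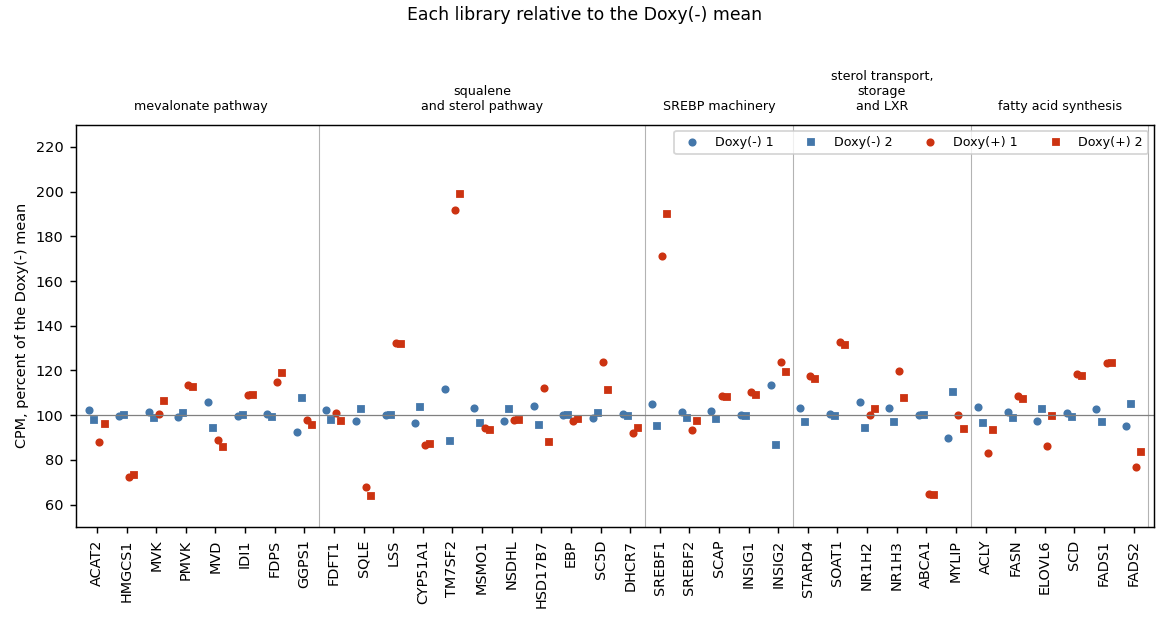
CPM of each tested gene in the 4 libraries as a percent of the mean of the Doxy(-) libraries (blue, Doxy(-); red, Doxy(+); circles, library 1; squares, library 2), by group of genes. SREBF1 stood at 171% and 190% in Doxy(+) and TM7SF2 at 192% and 199%, whereas ABCA1 stood at 64.8% and 64.1% and SQLE at 68.0% and 63.8%.

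In the mevalonate pathway 1 of 8 tested genes passed as higher and 1 as lower, and the median log2 fold change was -0.0022. Among all genes tested, 9.76% passed as higher and 9.53% as lower. Nothing particular to a group of the listed genes is read from its count. HMGCS1 (chr5:43287470-43313512, - strand, hg38), the cytosolic HMG-CoA synthase at the entry of the pathway, fell from 221 and 222 CPM in Doxy(-) to 160 and 162 CPM in Doxy(+). The libraries of a group differed by under 2 CPM and the groups did not overlap. The log2 fold change was -0.46 with an SE of 0.0344 (edgeR adjusted p = 6.61e-04), so the level fell by 27.2%. FDPS, the farnesyl diphosphate synthase at the other end of the pathway, rose from 291 and 288 CPM to 332 and 344 CPM, a log2 fold change of 0.23 with an SE of 0.0339 (edgeR adjusted p = 0.00709). FDPS has 8 annotated pseudogenes, so part of its reads may be divided between copies, and its call was lost without Doxy(+) 2 (edgeR adjusted p = 0.0716). The enzymes between them did not pass. The acetoacetyl-CoA thiolase ACAT2 had a log2 fold change of -0.12, the mevalonate kinase MVK one of 0.047 and the phosphomevalonate kinase PMVK one of 0.18. The decarboxylase MVD was at 64.7 and 57.8 CPM without doxycycline against 54.4 and 52.6 CPM with it, with a change of -0.19 (edgeR adjusted p = 0.117), and it became a call without Doxy(-) 2 (edgeR adjusted p = 0.0336). The isomerase IDI1 differed little but without overlap, at 77.5 and 77.8 CPM against 84.6 and 84.7 CPM, and did not pass (edgeR adjusted p = 0.120). GGPS1, which makes the geranylgeranyl group for protein prenylation, overlapped between the groups at a log2 fold change of -0.051.

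In the squalene and sterol pathway 4 of 11 genes passed (36.4%, against 19.3% of all genes tested), 2 as higher and 2 as lower. The median log2 fold change of the 11 genes was -0.032. FDFT1, the squalene synthase that commits the pathway to sterols, was at 145 and 139 CPM without doxycycline against 143 and 138 CPM with it. These ranges overlap, and the log2 fold change was -0.012 with an SE of 0.0443 (edgeR adjusted p = 0.882). The next enzyme, the squalene epoxidase SQLE, a rate-limiting step, fell from 160 and 170 CPM to 112 and 105 CPM. Both Doxy(+) libraries lay well below both Doxy(-) libraries, with a log2 fold change of -0.60 and an SE of 0.0517 (edgeR adjusted p = 0.00102). The enzyme after it moved the other way. LSS, the lanosterol synthase that closes the sterol rings, rose from 138 and 139 CPM to 183 in each Doxy(+) library, a log2 fold change of 0.40 with an SE of 0.0358 (edgeR adjusted p = 0.00118). CYP51A1, the lanosterol demethylase, was lower, at 120 and 129 CPM against 108 and 109 CPM, with a log2 fold change of -0.20 (edgeR adjusted p = 0.0375). This call was lost when any library but Doxy(-) 1 was left out, with an edgeR adjusted p between 0.0891 and 0.178, and CYP51A1 shares exons with neighbours on both strands and has 3 annotated pseudogenes.

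TM7SF2 (chr11:65111845-65116384, + strand, hg38), a sterol C14 reductase, had the largest change of the 36 genes but a low level. It was at 8.69 and 6.87 CPM without doxycycline against 14.9 and 15.5 CPM with it, which do not overlap. The log2 fold change was 0.97 with an SE of 0.145 (edgeR adjusted p = 0.00703), and it ran from 0.81 without Doxy(-) 2 to 1.14 without Doxy(-) 1. TM7SF2 overlaps exons of VPS51 on the same strand, and its estimated counts moved between its transcripts from library to library: TM7SF2-202, the one with most counts, held 53.9, 16.8, 8.05e-07 and 98.1 estimated counts in Doxy(-) 1, Doxy(-) 2, Doxy(+) 1 and Doxy(+) 2. Only the gene total is therefore compared here. The 6 later enzymes did not pass. MSMO1, the sterol methyl oxidase, had a log2 fold change of -0.091, NSDHL, a dehydrogenase of the demethylation complex, one of -0.032, and HSD17B7, its ketoreductase, one of 0.0021. EBP, the sterol isomerase, had -0.032, the lathosterol oxidase SC5D 0.23 (edgeR adjusted p = 0.105) and DHCR7, the reductase of the last step, -0.10 (edgeR adjusted p = 0.132).

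**Figure D3:**
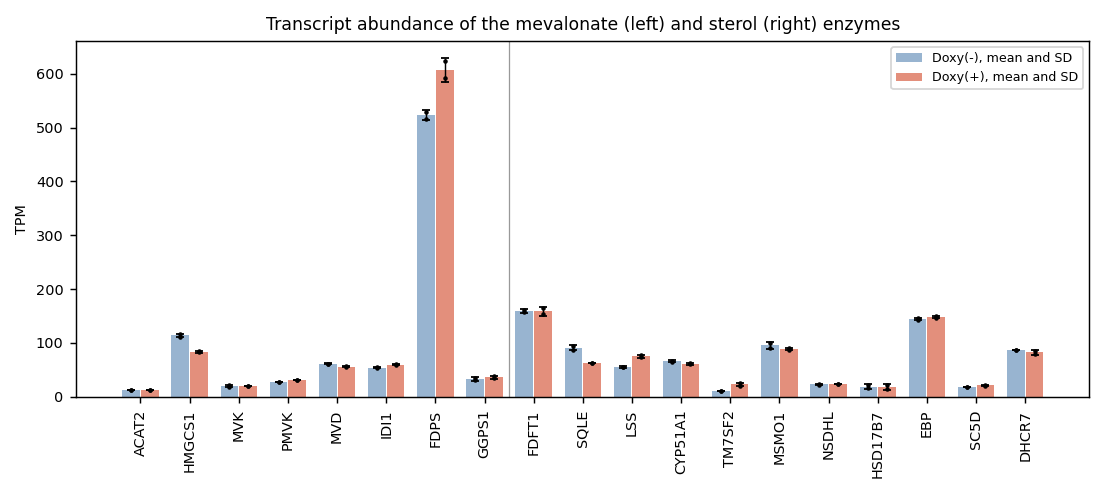
Transcript abundance in TPM, a scale per transcript length, of the mevalonate enzymes (left of the line) and the squalene and sterol enzymes (right), in pathway order. Bars are means of 2 libraries, error bars their SD and dots the libraries, and FDPS stands highest at 523 TPM in Doxy(-) and 607 TPM in Doxy(+).

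Per length, the enzymes were far from equal in these cells. In Doxy(-), FDPS was at 523 TPM ± 9.51 (SD, n = 2). FDFT1 was at 159 ± 3.58 and EBP at 145 ± 2.45 (SD, n = 2 each). By contrast, TM7SF2 was at 10.9 ± 0.845 and ACAT2 at 12.3 ± 0.328 (SD, n = 2 each). The FDPS value includes 194 and 234 TPM in Doxy(-) from FDPS-215, a transcript of 680 bases annotated as a retained intron. The EBP value includes 98.5 and 99.95 TPM from EBP-201, annotated without a defined coding sequence. In the same unit HMGCS1 went from 114 ± 2.997 to 83.8 ± 1.60 (SD, n = 2 each) and SQLE from 91.2 ± 4.79 to 62.9 ± 0.588 (SD, n = 2 each). In the squalene and sterol group summed TPM differed little, although SQLE fell and LSS rose (mean 55.5 TPM in Doxy(-) and 75.2 TPM in Doxy(+)). The 11 squalene and sterol genes summed to 770 TPM ± 4.50 in Doxy(-) and 765 TPM ± 8.47 in Doxy(+) (SD, n = 2 each). The 8 mevalonate genes summed to more in Doxy(+), at 845 ± 6.41 against 909 ± 22.05 TPM (SD, n = 2 each), although HMGCS1 fell. FDPS was the largest term of that sum.

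The genes of sterol transport, storage and LXR signalling held the most negative change of all. ABCA1 (chr9:104781006-104928155, - strand, hg38), the pump that exports cholesterol to lipid-poor apolipoproteins and a classic LXR target, was at 154 CPM in both Doxy(-) libraries and at 99.8 and 98.6 CPM in Doxy(+). The log2 fold change was -0.63 with an SE of 0.0392 (edgeR adjusted p = 3.46e-04), so the level fell by 35.6%, with -0.64 to -0.58 over the alternatives. SOAT1 (chr1:179293714-179358680, + strand, hg38), which esterifies cholesterol for storage in droplets, moved the other way, from 308 and 306 CPM to 407 and 403 CPM. Its log2 fold change was 0.40 with an SE of 0.0298 (edgeR adjusted p = 6.46e-04), and neither gene overlapped between the groups. STARD4, a soluble sterol carrier, was at 39.6 and 37.2 CPM against 45.0 and 44.6 CPM and missed the threshold with a log2 fold change of 0.22 (edgeR adjusted p = 0.0513), but passed without Doxy(-) 1 (edgeR adjusted p = 0.0437). The LXR receptors themselves did not pass. NR1H2 (LXR beta) was between 59.1 and 66.2 CPM in all libraries, and NR1H3 (LXR alpha) was at 9.77 and 9.19 CPM without doxycycline against 11.3 and 10.2 CPM with it, with a log2 fold change of 0.18 (edgeR adjusted p = 0.374). MYLIP, an LXR-induced ubiquitin ligase, stood at 2.72, 3.33, 3.03 and 2.83 CPM, where a difference would be hard to detect (log2 fold change -0.050, SE 0.245). ABCG1, a second efflux pump and LXR target, was at 0.465 and 0.136 CPM without doxycycline against 0.388 and 0.223 CPM with it, near the level of 3 reads (0.204 to 0.233 CPM), and was not tested. Of the 6 tested genes of the group 1 passed in each direction, with a median log2 fold change of 0.10. The shares of all genes tested were 9.76% higher and 9.53% lower.

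In fatty acid synthesis 2 of 6 tested genes passed, both as higher, where the share of all genes tested was 9.76%. Both act on finished chains. SCD, the stearoyl-CoA desaturase, was the most counted gene of all 36, at 1219 and 1200.19 CPM without doxycycline against 1430 and 1419.8 CPM with it. The groups did not overlap, and the log2 fold change was 0.24 with an SE of 0.0258 (edgeR adjusted p = 0.00241), a level 17.8% higher. FADS1, the delta-5 desaturase of polyunsaturated fatty acids, rose from 173 and 163 CPM to 207 in each Doxy(+) library, a log2 fold change of 0.30 with an SE of 0.0417 (edgeR adjusted p = 0.00536). The FADS1 call was lost with limma on log2(TPM + 1) (adjusted p = 0.0532) and with length-scaled counts (edgeR adjusted p = 0.0785). Its neighbour FADS2, the delta-6 desaturase, had the opposite sign at 15.7 and 17.4 CPM against 12.7 and 13.9 CPM and did not pass, with a log2 fold change of -0.32 (edgeR adjusted p = 0.0984). The annotated exons of FADS1 and FADS2 overlap on opposite strands, and whether the counting used the strand is not given in the sources used here. ACLY, which makes cytosolic acetyl-CoA from citrate, was at 334 and 310 CPM without doxycycline against 268 and 301 CPM with it. Its log2 fold change of -0.18 did not pass (edgeR adjusted p = 0.113) but did pass without Doxy(-) 2 (edgeR adjusted p = 0.0418) and in DESeq2 (adjusted p = 0.0388). FASN, the fatty acid synthase, was at 387 and 377 CPM against 415 and 411 CPM, without overlap, and missed the threshold with a log2 fold change of 0.11 (edgeR adjusted p = 0.0547). Without Doxy(-) 1, FASN passed (edgeR adjusted p = 0.0344). ELOVL6, which elongates palmitate, overlapped between the groups at a log2 fold change of -0.11 (edgeR adjusted p = 0.450).

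The estimated counts were divided among transcripts by the authors' quantifier, and 2 genes are shown for this division. HMGCS1-201, the main transcript of HMGCS1, carried 2473 and 2911 estimated counts in Doxy(-) and 1585 and 1693 in Doxy(+). HMGCS1-202, which differs in its annotated ends, carried 225 and 212 in Doxy(-) and 386 and 382 in Doxy(+). The minor transcript was thus higher in both Doxy(+) libraries while the gene total was lower, and it held 7.88% and 6.49% of the gene in Doxy(-) against 18.7% and 17.5% in Doxy(+). SREBF1 was grouped by annotated start, a grouping chosen after its values were seen. The 3 transcripts that begin at the upstream starts (17836986 to 17837002 on chromosome 17) carried 857 and 783 estimated counts in Doxy(-) and 1384 and 1928 in Doxy(+), or 69.1%, 60.9%, 68.4% and 82.3% of the gene. The 3 transcripts that begin in the first intron carried 18.4, 18.7, 33.5 and 0 in the same order. The 17 that begin further inside the gene carried 365, 483, 606 and 416, which overlap between the groups. No test was made on transcripts.

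**Figure D4:**
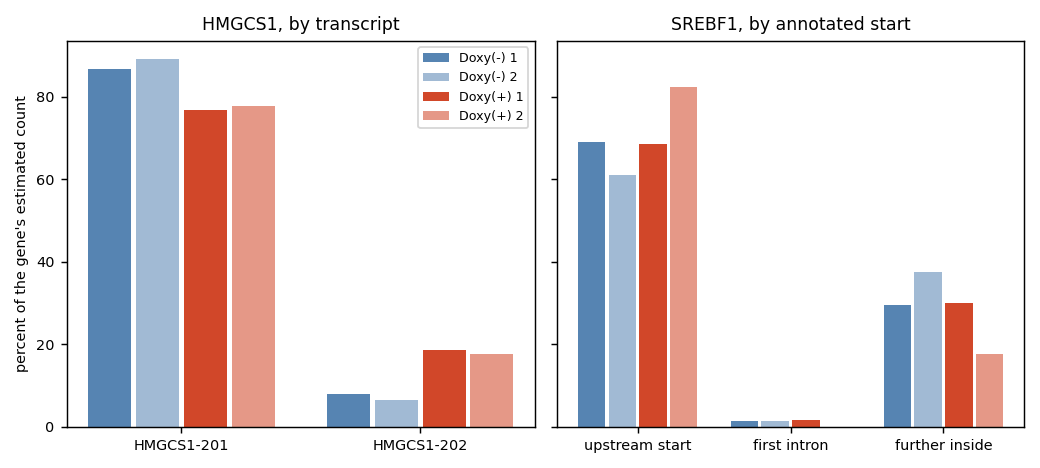
Share of the estimated count of HMGCS1 by its main transcripts (left) and of SREBF1 by annotated start (right), in percent, with 1 bar per library (blue, Doxy(-); red, Doxy(+)). HMGCS1-202 was at 7.88% and 6.49% in Doxy(-) against 18.7% and 17.5% in Doxy(+), and the upstream starts of SREBF1 held between 60.9% and 82.3%.

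Lists of neighbouring pathways, written by name, were set beside these genes by their counts and medians. None of the 15 genes of the prenyl, dolichol and ubiquinone branches passed the edgeR test (median log2 fold change -0.091), and 1 was at an unadjusted p under 0.05. DESeq2 and limma on TPM also gave 0, and leaving out Doxy(-) 2 gave 1. Of 11 other regulators of SREBP 2 passed as higher and 1 as lower, with a median of 0.025. SPRING1, which licenses the protease that cleaves SREBPs, was at 49.6 and 49.4 CPM without doxycycline against 82.5 and 85.2 CPM with it, a log2 fold change of 0.76 (edgeR adjusted p = 4.92e-04). PAQR3, a Golgi tether, had a log2 fold change of 0.54 (edgeR adjusted p = 0.0108, or 0.0550 without Doxy(+) 1), and the pseudokinase TRIB1 one of -0.50 (edgeR adjusted p = 0.00217). The proteases themselves, MBTPS1 and MBTPS2, had changes of 0.033 and 0.035 and did not pass.

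Intracellular sterol transport and uptake was the list with most genes in 1 direction, since 9 of 21 tested (42.9%) passed as higher and none as lower, with a median log2 fold change of 0.23. The background share for higher was 9.76%, and 14 genes were at an unadjusted p under 0.05 in either direction (33.4% of all genes were). DESeq2 gave 8 higher and limma on log2(TPM + 1) gave 4, with 0 lower in each, and the edgeR count was 3 without Doxy(+) 1 and 5 without Doxy(+) 2. They included NPC2, the lysosomal carrier that hands cholesterol out of the lumen, at 195 and 180 CPM against 263 and 259 CPM (log2 fold change 0.48, edgeR adjusted p = 0.00149). SCARB1, the receptor for HDL cholesterol, was at 71.9 and 60.8 CPM against 104 and 105 CPM (log2 fold change 0.66, edgeR adjusted p = 0.00373). The oxysterol-binding protein relative OSBPL1A had a log2 fold change of 0.76 (edgeR adjusted p = 0.00132) and the sterol carrier SCP2 one of 0.37 (edgeR adjusted p = 0.00680, or 0.0542 without Doxy(+) 1). In each of these 4 genes both Doxy(+) libraries lay above both Doxy(-) libraries.

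The 20 tested genes of other fatty acid synthesis and elongation had a median log2 fold change of 0.066, with 2 higher and 3 lower (0 and 0 in limma on log2(TPM + 1), and 0 lower when either Doxy(+) library was left out). The elongases went both ways, with ELOVL7 at 0.53 (edgeR adjusted p = 0.00566) and ELOVL4 at 0.93 (edgeR adjusted p = 0.00656) against ELOVL5 at -0.25 (edgeR adjusted p = 0.00643). The desaturase relative FADS3 fell by 0.30 on the log2 scale (edgeR adjusted p = 0.0213). Of 19 tested acyl-CoA synthetases and neutral lipid storage genes 5 passed as higher and 1 as lower, with a median of 0.18. The counts were 3 and 0 with limma on TPM and 2 and 0 with length-scaled counts, and the lower call was also lost when either Doxy(+) library was left out. ACSL1, which activates long-chain fatty acids, was at 57.7 and 62.5 CPM against 134 and 127 CPM, a log2 fold change of 1.12 (edgeR adjusted p = 2.42e-04). Of the 3 droplet coat genes tested, PLIN2 rose from 93.9 and 94.5 CPM to 149 and 148 CPM and PLIN4 from 2.72 and 1.97 CPM to 8.31 and 8.49 CPM, with log2 fold changes of 0.66 and 1.84 (edgeR adjusted p = 3.26e-04 and 0.00312). On log2(TPM + 1), where a low gene is compressed, limma gave 0.96 for PLIN4 (adjusted p = 0.0852). The third, PLIN3, overlapped between the groups at a log2 fold change of 0.0089 (edgeR adjusted p = 0.928). LPIN2, a phosphatidate phosphatase, rose by 0.58 on the log2 scale (edgeR adjusted p = 0.00173, or 0.0510 with length-scaled counts).

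Fatty acid oxidation, the opposite process, had 7 of 21 genes higher and 3 lower, with a median of 0.14, and 3 higher when either Doxy(+) library was left out. For this and the other lists, the shares of all genes tested were 9.76% higher and 9.53% lower. The oxidation counts were 2 higher and 1 lower with both limma settings, and 2 and 2 with length-scaled counts. PPARGC1A, a coactivator of mitochondrial genes, was at 6.44 and 6.94 CPM without doxycycline against 18.3 and 22.3 CPM with it, a log2 fold change of 1.60 (edgeR adjusted p = 0.00111). HADHB, a subunit of the trifunctional protein, had 0.50 (edgeR adjusted p = 0.00111) and ETFDH, which passes the electrons on, 0.71 (edgeR adjusted p = 0.0104). ACADVL, the dehydrogenase for very long chains, had -0.48 (edgeR adjusted p = 5.21e-04), from 376 and 364 CPM to 264 and 266 CPM. These lists had no test of their own, and nothing particular to a list is read from its count.

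**Figure D5:**
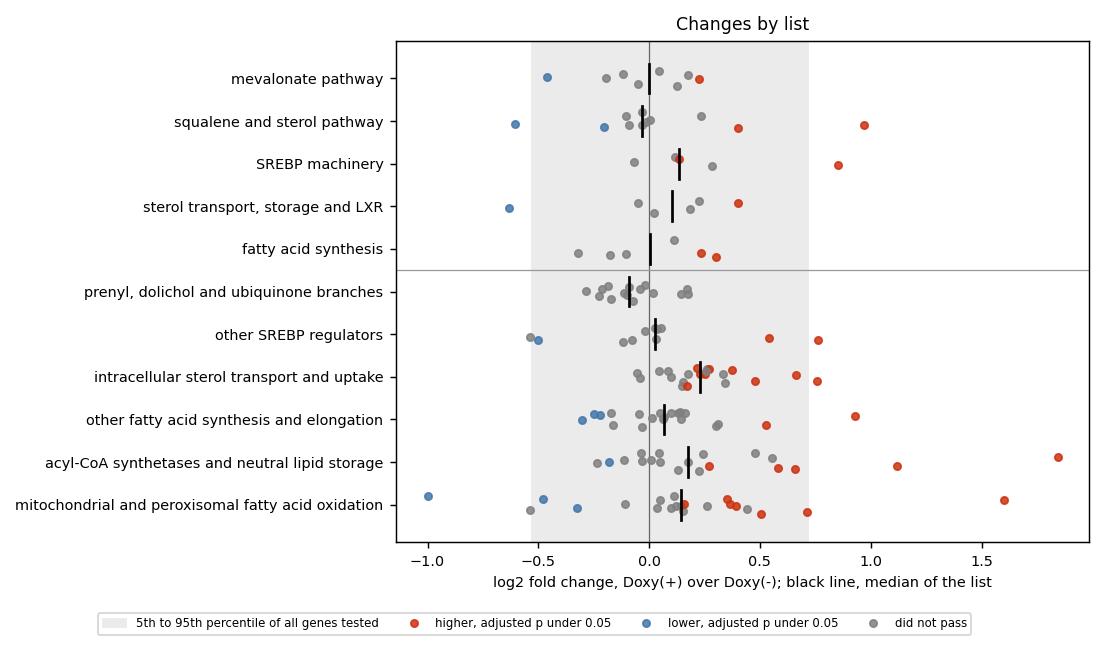
Log2 fold change, Doxy(+) over Doxy(-), of every tested gene in the 5 groups of listed genes (above the line) and the 6 neighbouring lists (below it). Each point is 1 gene, red if it passed as higher and blue if it passed as lower at an edgeR adjusted p under 0.05, the black lines are medians and the grey band spans the 5th to the 95th percentile of all genes, and the median of sterol transport and uptake (0.23) is the highest.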

How the data were processed

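The labels name a stranded TruSeq mRNA library kit. The submitters' processing notes name Trim Galore 0.6.6, cutadapt 2.5, STAR 2.7.9a and hg38, and the study's methods add RSEM and DESeq2. The deposited files have another layout, with the columns that kallisto writes, and neither the version of the quantifier nor the Ensembl release nor any use of strand is given in the sources used here. For 180253 transcript identifiers the authors deposited an estimated count, not normalized, with reads shared out over the transcripts they fit. They also deposited a TPM value, which the authors' quantifier scaled to sum to 1000000 in each library.

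Identifiers were matched to genes through GENCODE 44 (83.6% matched). The unmatched ones carried 9.66% to 9.89% of each library's counts and stayed out. ACACA matched none and is not analysed here. Counts were summed per gene, rounded and tested with edgeR 4.0.16 (glmQLFit, glmQLFTest, TMM, filterByExpr) in R 4.3.3, with the group as the only term and Benjamini-Hochberg adjustment over 13569 genes. The SE is the one implied by the F statistic. Alternatives used DESeq2 1.42.0, limma 3.58.1 on log2(TPM + 1) and log2(TPM + 0.1), other scaling and filters, counts of transcript copies among the unmatched identifiers, length-scaled counts, a replicate block and each library left out. The fit was also run on simulated counts with the same dispersion for every gene, which checks the code and not the error rate in these data. Between libraries of a group a chi-square over genes gave 4.18 (Doxy(-)) and 2.98 (Doxy(+)) per degree of freedom, so none was treated as a repeat deposit of another. Counts of 3 or fewer (0.204 to 0.233 CPM) were treated as the floor, which covers counting error only.

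All listed genes are named whatever their result, with TFE3, PRCC and up to 4 genes of each neighbouring list by smallest p among those that passed. Marker genes, MBTPS1 and MBTPS2 are named besides. The genes, lists and tests were chosen with earlier results of these data known. Overlapping exons were found for 11 of the listed genes, pseudogenes for 5 and unmatched copies for 4, so their reads may be divided.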

Additional observations from a re-analysis of the deposited data

How the results depend on the processing

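The counts of listed genes that passed were 8 higher and 4 lower, none with a fold change over 2, with a median log2 fold change of 0.012. The higher count moved to 5 with limma on log2(TPM + 1), limma on log2(TPM + 0.1) and length-scaled counts, where 1 gene, TM7SF2, had a fold change over 2 and the median was 0.068, 0.070 and 0.037. These 3 settings lost FDPS, CYP51A1, INSIG1 and FADS1 and kept the other 8, which also passed under every other setting. All genes that passed numbered 904, 889 and 787 there, against 2618. With each library left out in turn, higher calls ran from 6 to 10, lower calls from 3 to 5, calls over a fold change of 2 from 0 to 1 and the median from 0.0089 to 0.061. FDPS was lost without Doxy(+) 2, and TM7SF2 passed the fold change of 2 without Doxy(-) 1. At an adjusted p under 0.01, 7 genes were higher and 3 lower, and no separate median applies. DESeq2 and the counts with transcript copies each gained ACLY as lower. With limma, OSBPL1A, ELOVL4, ELOVL5, ELOVL7, FADS3, PLIN4 and ETFDH of the neighbouring lists also missed the threshold, as did PAQR3 and LPIN2 with length-scaled counts and PAQR3 and SCP2 without Doxy(+) 1. ELOVL5 and FADS3 missed it when either Doxy(+) library was left out.

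The replicate numbers 1 and 2 are shared by the groups, but the labels do not say that they pair the libraries, and the deviations of same-numbered libraries had r = -0.015. With the replicate number as a block, 7 genes were higher and 4 lower, with a median of 0.0082, and only INSIG1 was lost (log2 fold change 0.13, edgeR adjusted p = 0.0520).

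The sign turned for 11 listed genes and PRCC, none of which passed in the edgeR fit. With limma on log2(TPM + 1), limma on log2(TPM + 0.1) and length-scaled counts, in that order, ACAT2 had 0.11, 0.12 and 0.086, EBP 0.037, 0.037 and 0.00050, ELOVL6 0.062, 0.065 and 0.034, GGPS1 0.12, 0.13 and 0.086, NSDHL 0.037, 0.039 and 0.0026, HSD17B7 -0.078, -0.082 and -0.12, and PRCC -0.15, -0.15 and -0.19. SREBF2 had 0.017 with both limma settings and MYLIP had 0.017 and 0.027. NR1H3 had -0.027 with length-scaled counts. HSD17B7 was also at -0.00052 with RLE size factors, -0.0073 with no low-count filter, -0.0030 in DESeq2 and -0.0059 with the replicate block. With each library left out, FDFT1 ran from -0.046 to 0.016, GGPS1 from -0.16 to 0.063, HSD17B7 from -0.18 to 0.17, MYLIP from -0.19 to 0.11, NR1H2 from -0.062 to 0.10, NSDHL from -0.072 to 0.0051 and PRCC from -0.029 to 0.30. The cause was not tested.

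With 2 libraries per group, the smallest log2 fold change among listed genes that passed was 0.13, and genes near 3 CPM such as MYLIP had an SE of 0.245.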

Other observations

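GPAM, the mitochondrial acyltransferase that starts glycerolipid synthesis, stood out after its values were seen. It was at 42.8 and 2.86 CPM without doxycycline against 29.4 and 36.3 CPM with it, so Doxy(-) 2 lay far below the other 3 libraries, and the groups overlap. ACSS2, which makes acetyl-CoA from acetate, also differed within a group, at 31.3 and 18.4 CPM without doxycycline against 19.3 and 24.7 CPM with it. CPT1B, the muscle form of the mitochondrial acylcarnitine gate, shares exons on the same strand with CHKB-CPT1B, so its reads may be divided. CPT1B was at 25.8 and 25.3 CPM without doxycycline against 16.7 and 8.94 CPM with it, with a log2 fold change of -0.999 and an SE of 0.256 (edgeR adjusted p = 0.0431). It ran from -1.52 without Doxy(+) 1 to -0.61 without Doxy(+) 2, and its call was lost when either Doxy(-) library was left out (edgeR adjusted p = 0.0625 and 0.05003) and in DESeq2 (adjusted p = 0.0951). CPT1A, the form of most other tissues, was at 27.4 and 26.4 CPM against 35.4 and 33.9 CPM, a log2 fold change of 0.37 (edgeR adjusted p = 0.0164), and its call was lost without Doxy(+) 1 (edgeR adjusted p = 0.112), without Doxy(+) 2 (edgeR adjusted p = 0.0635) and with length-scaled counts (edgeR adjusted p = 0.314). With limma on log2(TPM + 1) and log2(TPM + 0.1), CPT1B (adjusted p = 0.0688 and 0.0703) and CPT1A (adjusted p = 0.262 and 0.251) also lost their calls. With length-scaled counts CPT1B did not pass either (edgeR adjusted p = 0.0737). GPAM, ACSS2, CPT1B and CPT1A were chosen after their values were seen.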
